A study of Mus musculus with 20 samples.

Results

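The ADAMTS proteases are secreted zinc enzymes of the extracellular matrix, named for a disintegrin-like module and thrombospondin type 1 repeats. The 10 genes described here, Adamts1, Adamts2, Adamts3, Adamts4, Adamts5, Adamts9, Adamts10, Adamts12, Adamts14 and Adamts16, were chosen by gene symbol from a table of 24393 genes that held 19 Adamts genes in all. They were grouped by known substrate into 3 procollagen N-proteinases, 4 enzymes that cleave aggrecan and versican, and 3 other enzymes. All 10 were among the 14179 genes that passed the filter on low counts.

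As background, fibrillar procollagens are secreted with a propeptide at each end, and the N-proteinases Adamts2, Adamts3 and Adamts14 cut off the amino-terminal one so that fibrils can form. Adamts1, Adamts4, Adamts5 and Adamts9 cleave the large hyaluronan-binding proteoglycans, aggrecan in cartilage and versican in loose connective tissue. The enzymes are made as inactive precursors, trimmed by furin-type convertases, and several of them are inhibited by Timp3.

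The table held 20 RNA-seq libraries, made from 3 populations of cells of the quadriceps, tibialis anterior and gastrocnemius of mice, in 6 groups. FAP and Misc each had 4 DKO and 4 WT libraries, and SMP had 2 DKO and 2 WT libraries. The series title concerns the expression of matrix proteins by several cell types in muscle fibrosis. FAP is the usual name of fibro/adipogenic progenitors, stromal cells of the muscle interstitium, and SMP is that of skeletal muscle progenitors. Misc is kept as the sample labels give it, because the design text lists a population FB in its place and no label joins the names. DKO is not spelled out by gene in the labels, and the strain, age and sex of the mice are not given. As an assumption from background, it is read as loss of desmin and nesprin 1, and desmin (Des) transcript fell in DKO in all 3 populations, with log2 fold changes of −1.81 ± 0.18 in FAP, −1.25 ± 0.25 in Misc and −1.45 ± 0.19 in SMP. How the cells were separated, and whether animals were pooled, are also not given.

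Library totals in FAP, in units of 1e+06 counts, ranged over 6.74 to 11.04 for DKO libraries and 10.46 to 13.04 for WT libraries. For Misc the DKO range was 8.36 to 8.49 and the WT range 9.57 to 17.73, and for SMP the DKO range was 5.83 to 6.12 and the WT range 9.67 to 10.66. The summed level of 6 progenitor markers of the FAP type was 3858.5 to 4890.6 CPM in FAP DKO libraries, against 5363.5 to 5715.6 CPM in FAP WT, and 7 myogenic markers summed to 1470.0 to 1752.1 CPM in SMP DKO and 2199.2 to 2250.1 CPM in SMP WT. The same 7 summed to 1017.1 to 1243.3 CPM in Misc DKO and 321.9 to 424.2 CPM in Misc WT, almost all of it Chodl, at 1094.6 ± 102.8 CPM in Misc DKO and 354.0 ± 44.1 CPM in Misc WT. Misc libraries were high in 7 tendon markers, at 50755.8 to 71776.6 CPM in DKO and 51544.0 to 54961.6 CPM in WT. Between genotypes in Misc, 2 of the 7 were called higher and 3 lower, where 9.15% of all genes were higher and 9.55% lower. Fmod alone had 17786.5 to 27690.7 CPM in Misc DKO against 29120.4 to 31693.8 CPM in Misc WT. One library stood apart from its group: SMP DKO replicate 2 had 111.7 CPM of the FAP marker Pdgfra, 128.9 CPM of the endothelial Cdh5 and 39.0 CPM of the macrophage Csf1r, against 10.1, 20.0 and 0.132 CPM in SMP DKO replicate 1. Sums of other marker lists also differed between SMP DKO and SMP WT, for immune markers mainly through replicate 2. The 5 muscle fibre markers were all called higher, summing to 141.3 and 450.0 CPM in SMP DKO against 23.0 and 35.8 CPM in SMP WT. Of 8 pericyte and smooth muscle markers 2 were called lower, with sums of 1078.9 and 1167.5 CPM in SMP DKO against 1590.4 and 1581.4 CPM in SMP WT. That list and the myogenic one both hold Des, the gene assumed to be lost in DKO. Des had 75.4 and 54.2 CPM in SMP DKO against 170.9 and 183.7 CPM in SMP WT, which is a part of the fall in both sums. For 5 Schwann markers, 0 of which were called, the sums were 138.4 and 174.1 CPM in SMP DKO against 233.7 and 226.5 CPM in SMP WT. Immune markers summed to 27.3 and 110.6 CPM in SMP DKO against 23.6 and 17.6 CPM in SMP WT. The part of other cell types in the SMP results below was not tested.

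Levels are in CPM, counts per 1e+06 of the scaled library total, as mean ± SD where they belong to a group. Levels of different genes are compared only as CPM per kb of exon. Fold changes are log2 values ± standard error, and each adjusted p is a Benjamini-Hochberg value over the 14179 genes, from the quasi-likelihood test of edgeR, with n = 4 against 4 libraries for FAP and Misc and n = 2 wherever SMP is a group. An adjusted p below 0.05 is called. In RNA from whole populations, fewer cells of a type and less RNA per cell cannot be told apart.

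Of the 10 genes, 5 passed the test between DKO and WT in FAP, 4 in Misc and 4 in SMP, and the direction depended on the population. Adamts3, Adamts4 and Adamts9 were higher in FAP DKO. Every change called in Misc was a decrease, and Adamts14 was lower in DKO in both FAP and Misc but higher in SMP. In FAP, 3 were higher and 2 lower, where 10.7% of all genes tested were called (5.58% higher, 5.14% lower). In Misc, 0 were higher and 4 lower, where 18.7% of all genes were called (9.15% higher, 9.55% lower). In SMP, 1 was higher and 3 were lower, where 23% of all genes were called (11.8% higher, 11.2% lower). The median log2 fold change over the 10 genes was −0.06 in FAP, −0.29 in Misc and −0.02 in SMP, against −0.01, 0.01 and 0.01 over all genes tested.

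**Figure D1:**
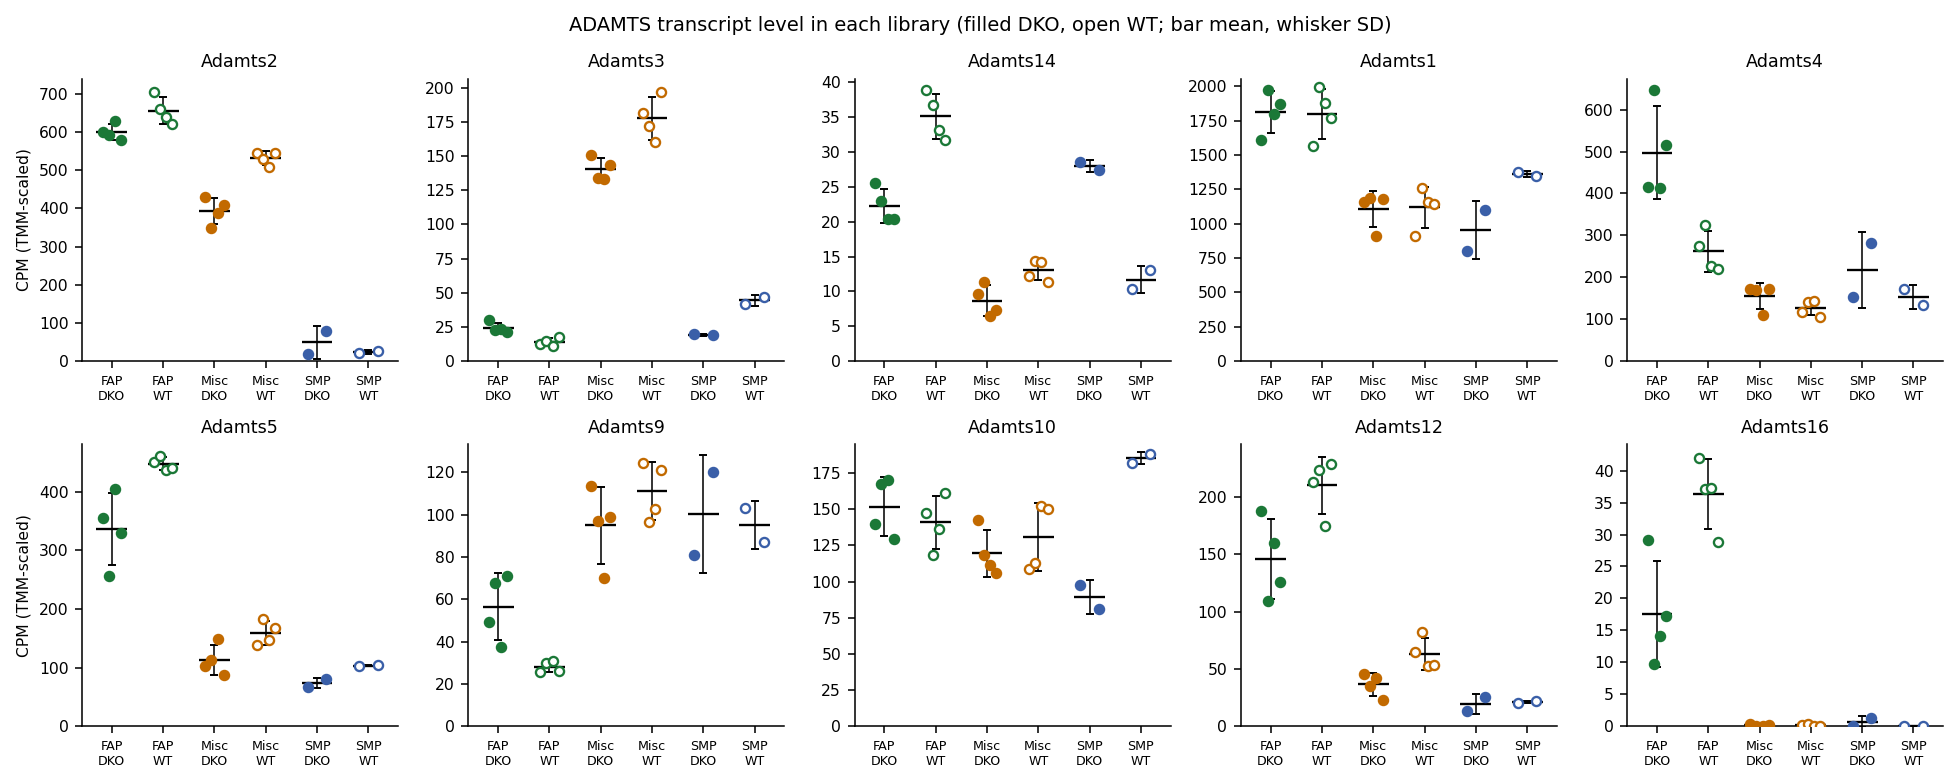
Level of each of the 10 genes in every library, in CPM on linear axes that start at 0, with DKO libraries as filled points left of WT libraries as open points, a bar at the group mean and a whisker of 1 SD. Adamts16 is near 0 outside FAP, Adamts3 is highest in Misc, and Adamts14 is lower in DKO than in WT in FAP and Misc but higher in DKO in SMP.

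Adamts1, an enzyme known as an early response gene and a versican protease, had the highest level per kb of the 10 genes in all 6 groups. It reached 371.4 ± 31.0 CPM per kb in FAP DKO and 368.8 ± 37.2 in FAP WT, 227.0 ± 27.0 in Misc DKO and 229.0 ± 30.0 in Misc WT, and 194.6 ± 43.2 in SMP DKO and 278.4 ± 4.69 in SMP WT. At the other end was Adamts16 in Misc and SMP, and also in FAP DKO at 3.53 ± 1.66 CPM per kb. In FAP WT the lowest was Adamts3, at 3.48 ± 0.705 CPM per kb. The second place differed by group: it was held by Adamts4 in FAP DKO and SMP DKO, by Adamts2 in FAP WT and both Misc groups, and by Adamts10 in SMP WT.

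**Figure D2:**
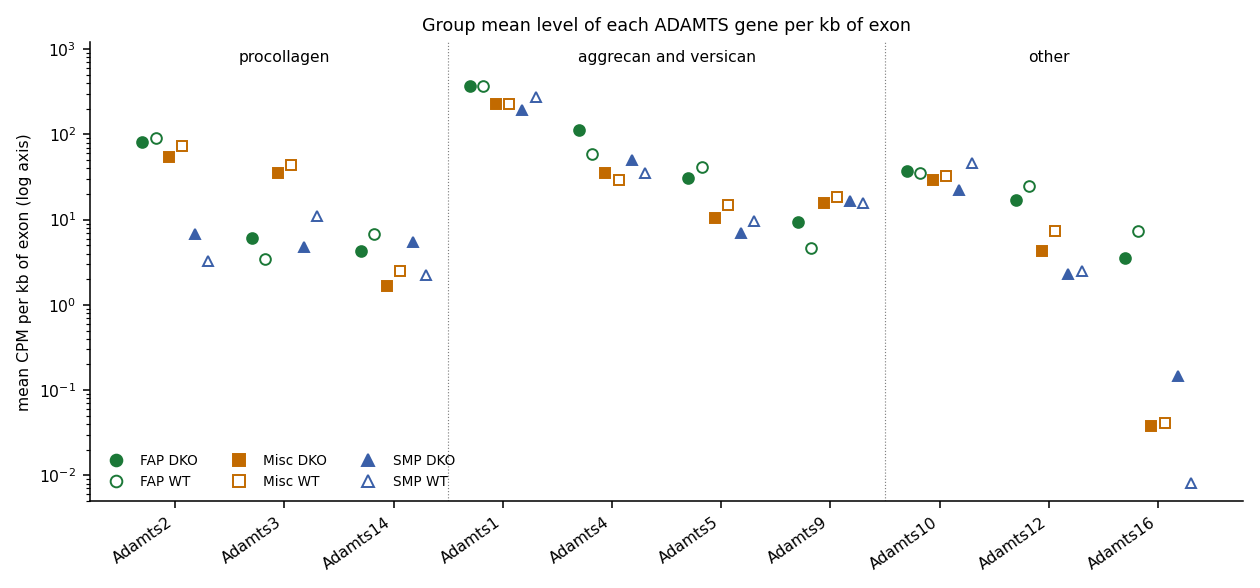
Group means of each gene in CPM per kb of exon on a log axis, by substrate group, with DKO filled and WT open and one symbol per population. Adamts1 is the highest gene in every group, and Adamts2 is the highest N-proteinase in FAP and Misc but not in SMP WT, where Adamts3 is.

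Promoter sequence is shown for 3 genes that the values turn on: Adamts1 for its level, Adamts2 as the main N-proteinase of the stromal populations, and Adamts14 for its opposite DKO changes. Each is the 250 bases before the annotated start, from RefSeq on GRCm38.p6, written 5′ to 3′ on the gene's strand. Capitals mark matches to TATAAA or GGGCGG on either strand, overlapping matches counted separately.
Adamts1, chr16:85803114-85803363, minus strand: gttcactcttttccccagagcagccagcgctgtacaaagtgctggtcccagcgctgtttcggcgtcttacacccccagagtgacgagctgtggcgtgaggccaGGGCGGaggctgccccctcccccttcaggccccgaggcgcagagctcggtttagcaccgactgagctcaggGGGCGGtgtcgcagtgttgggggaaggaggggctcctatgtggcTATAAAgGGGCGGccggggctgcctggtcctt
Adamts2, chr11:50601835-50602084, plus strand: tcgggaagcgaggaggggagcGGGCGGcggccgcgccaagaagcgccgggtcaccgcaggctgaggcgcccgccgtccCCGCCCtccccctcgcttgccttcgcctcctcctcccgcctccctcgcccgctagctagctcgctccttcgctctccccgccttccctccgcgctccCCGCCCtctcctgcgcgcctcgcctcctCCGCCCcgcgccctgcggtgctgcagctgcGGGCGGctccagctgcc
Adamts14, chr10:61273420-61273669, minus strand: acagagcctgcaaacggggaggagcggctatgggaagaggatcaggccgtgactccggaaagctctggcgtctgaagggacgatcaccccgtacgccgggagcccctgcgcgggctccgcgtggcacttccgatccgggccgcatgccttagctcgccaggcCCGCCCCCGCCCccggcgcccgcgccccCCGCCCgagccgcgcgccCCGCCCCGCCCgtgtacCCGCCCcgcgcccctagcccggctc
The Adamts1 window held 1 TATAAA, which begins 32 bases before the start, and 3 GGGCGG matches. The Adamts2 window held 5 and the Adamts14 window 6 GGGCGG matches, and neither held TATAAA. Over 32851 windows of this length, 12.4% held TATAAA and 32.7% held GGGCGG. GC content was 65.6% for Adamts1, 78.0% for Adamts2 and 76.4% for Adamts14, where the median window had 52.4%. The Adamts12 window had 63.2% GC and neither motif. These are matches of letters in a window and no more.

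Adamts2, on chromosome 11 from 50602085 to 50807573 (plus strand, GRCm38), encodes the enzyme whose loss causes the dermatosparaxis type of Ehlers-Danlos syndrome in humans. It had 600.8, 592.2, 630.0 and 578.5 CPM in the 4 FAP DKO libraries, against 704.7, 660.6, 639.5 and 622.2 CPM in FAP WT. In Misc it had 429.3, 347.8, 387.5 and 408.1 CPM in DKO, against 546.4, 529.3, 507.4 and 545.9 CPM in WT. The SMP libraries had far less, 17.9 and 79.4 CPM in DKO against 20.7 and 26.7 CPM in WT. The groups overlapped in FAP and SMP and did not overlap in Misc. The fold change was −0.13 ± 0.25 in FAP (adjusted p = 0.8) and −0.44 ± 0.25 in Misc (adjusted p = 0.25), neither called. Fitted on the Misc libraries alone, the Misc value was −0.43 and was called (adjusted p = 0.0046). The SMP value was 1.03 ± 0.38 (adjusted p = 0.059) and turned to −0.41 (adjusted p = 0.13) without SMP DKO replicate 2, the library with the high Pdgfra. With SMP DKO replicate 1 left out in its place, the value was 1.73 (adjusted p = 2.7e-08). The part that other cells had in that library's Adamts2 was not tested. The DKO effect in FAP minus that in SMP was −1.16 ± 0.45 (adjusted p = 0.11), and in Misc minus that in SMP −1.47 ± 0.45 (adjusted p = 0.053). Both passed with DESeq2's Wald test, at −1.19 (adjusted p = 0.032) and −1.50 (adjusted p = 0.0046), and without SMP DKO replicate 1. Without SMP DKO replicate 2 they were 0.28 (adjusted p = 0.44) and −0.03 (adjusted p = 0.97).

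Between populations, Adamts2 set both stromal populations apart from SMP. In DKO it was higher in FAP than in SMP by 3.63 ± 0.38 (adjusted p = 3.3e-07) and higher in Misc than in SMP by 3.02 ± 0.36 (adjusted p = 2e-06). These rested in size on SMP DKO replicate 2, and without it they were 5.08 for FAP over SMP (adjusted p = 5.1e-16) and 4.47 for Misc over SMP (adjusted p = 4.5e-15). In WT the differences were 4.79 ± 0.40 (adjusted p = 1.7e-08) for FAP over SMP and 4.49 ± 0.39 (adjusted p = 3.6e-08) for Misc over SMP. FAP over Misc was 0.61 ± 0.25 in DKO (adjusted p = 0.076) and 0.30 ± 0.25 in WT (adjusted p = 0.38), although the FAP and Misc libraries did not overlap in either genotype. Both were called in a fit without the SMP libraries that paired FAP and Misc libraries of the same replicate number. The values there were 0.61 in DKO (adjusted p = 3.1e-07) and 0.28 in WT (adjusted p = 0.0036). Counting this fit, the DKO difference was called in 3 of 15 alternatives and the WT difference in 2 of 15.

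Adamts3, on chromosome 5 from 89673841 to 89883668 (minus strand), encodes an N-proteinase that in mice is also needed to activate the lymphatic growth factor Vegfc. It was highest in Misc. The FAP DKO libraries had 29.8, 22.7, 23.8 and 20.9 CPM, against 12.7, 14.8, 10.9 and 17.5 CPM in FAP WT. The Misc DKO libraries had 151.0, 133.9, 133.1 and 143.6 CPM, against 181.5, 172.2, 160.0 and 197.2 CPM in Misc WT. The SMP libraries had 19.9 and 18.8 CPM in DKO, against 41.7 and 47.0 CPM in WT. The groups did not overlap in any population, and DKO was the higher one in FAP and the lower one in Misc and SMP.

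Adamts3 rose in FAP DKO by 0.81 ± 0.13 (adjusted p = 0.00017), and fell in Misc DKO by 0.34 ± 0.11 (adjusted p = 0.035) and in SMP DKO by 1.2 ± 0.18 (adjusted p = 6e-05). The SMP value was −1.17 (adjusted p = 0.0012) without SMP DKO replicate 2. The Misc call was lost on leaving out any one of Misc DKO replicate 2, Misc DKO replicate 3, Misc WT replicate 1 or Misc WT replicate 4, with adjusted p of 0.085, 0.078, 0.058 and 0.086. The DKO effect differed between FAP and Misc by 1.15 ± 0.17 (adjusted p = 0.00025), where 2.79% of all genes were called (1.37% positive, 1.42% negative). Between FAP and SMP it differed by 2.00 ± 0.22 (adjusted p = 2.5e-06), where 10.3% of all genes were called (4.92% positive, 5.42% negative). Between Misc and SMP it differed by 0.86 ± 0.21 (adjusted p = 0.011), where 8.94% of all genes were called (4.61% positive, 4.34% negative), and this call was lost without SMP WT replicate 2 (adjusted p = 0.055). Tendon genes, high in Misc, also moved in FAP: 2 of 7 tendon markers were higher in FAP DKO, and their summed level was 2994.2 to 4872.5 CPM in FAP DKO against 642.2 to 869.7 CPM in FAP WT. Most of that sum was thrombospondin 4 (Thbs4, 3162.7 ± 736.6 CPM in FAP DKO and 330.0 ± 44.9 CPM in FAP WT). The other marker called was the tendon transcription factor Scx, at 2.64 ± 1.38 CPM in FAP DKO and 0.725 ± 0.115 CPM in FAP WT (1.73 ± 0.36, adjusted p = 0.0033). Fmod (0.73 ± 0.27, adjusted p = 0.09) and Tnmd (0.50 ± 0.21, adjusted p = 0.14) were not called, and neither were Kera, Mkx and Chad. Kera showed no rise, with 46.7, 16.0, 20.8 and 30.7 CPM in FAP DKO against 41.9, 33.7, 29.6 and 31.2 CPM in FAP WT. Of the same 7 markers, 2 were higher and 3 lower in Misc DKO, where 9.15% of all genes were higher and 9.55% lower. In SMP DKO 0 were higher and 4 lower, where 11.8% of all genes were higher and 11.2% lower. For FAP DKO the shares of all genes were 5.58% higher and 5.14% lower. The part of tendon genes in the Adamts3 differences was not tested.

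In WT, Adamts3 was lower in FAP than in Misc (−3.67 ± 0.13, adjusted p = 6.1e-17) and lower in FAP than in SMP (−1.67 ± 0.14, adjusted p = 6.1e-10). In DKO the FAP to Misc difference was −2.53 ± 0.12 (adjusted p = 5.1e-14), and FAP over SMP was 0.33 ± 0.16 and not called (adjusted p = 0.08). It passed with no filter on low counts (0.41, adjusted p = 0.034) and without FAP DKO replicate 4 (0.40, adjusted p = 0.043). Misc exceeded SMP by 2.86 ± 0.17 in DKO (adjusted p = 1.6e-12) and by 2.00 ± 0.15 in WT (adjusted p = 8.9e-11). The order of the group means was Misc WT, Misc DKO, SMP WT, FAP DKO, SMP DKO and FAP WT, and no neighbours in that order had overlapping libraries.

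Adamts14, on chromosome 10 from 61197112 to 61273419 (minus strand), encodes the third procollagen N-proteinase. It had 25.5, 23.0, 20.4 and 20.4 CPM in FAP DKO, against 38.9, 36.7, 33.2 and 31.8 CPM in FAP WT. The Misc libraries had 9.58, 11.3, 6.47 and 7.38 CPM in DKO, against 12.2, 14.4, 14.2 and 11.4 CPM in WT. In SMP it had 28.6 and 27.4 CPM in DKO, against 10.3 and 13.1 CPM in WT. Every FAP DKO and Misc DKO library lay below every WT library of its population, and both SMP DKO libraries lay above both SMP WT libraries.

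The changes in Adamts14 were −0.66 ± 0.13 in FAP (adjusted p = 0.002), −0.59 ± 0.15 in Misc (adjusted p = 0.0077) and 1.26 ± 0.20 in SMP (adjusted p = 0.00012). The SMP value was 1.28 (adjusted p = 0.00067) without SMP DKO replicate 2. The effect differed between FAP and SMP by −1.92 ± 0.24 (adjusted p = 1.6e-05) and between Misc and SMP by −1.85 ± 0.25 (adjusted p = 3.8e-05). FAP and Misc did not differ in it by the test (−0.07 ± 0.20, adjusted p = 0.94). As levels, Adamts14 was higher in FAP than in Misc by 1.36 ± 0.15 in DKO (adjusted p = 8.7e-08) and 1.43 ± 0.14 in WT (adjusted p = 5.9e-09). It was higher in FAP than in SMP by 1.59 ± 0.18 in WT (adjusted p = 4e-08), while in DKO the difference was −0.33 ± 0.17 (adjusted p = 0.094). Misc was lower than SMP in DKO (−1.69 ± 0.17, adjusted p = 1.8e-08), and in WT the value was 0.16 ± 0.18 (adjusted p = 0.44).

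The makeup of the N-proteinases, as shares of their summed CPM per kb in each library, followed from these levels. The Adamts2 share in FAP libraries was 87.0 to 89.8% for DKO and 89.1 to 90.6% for WT, and in Misc libraries 57.4 to 60.8% for DKO and 59.4 to 62.1% for WT. In SMP its share was 19.1 to 52.3% in DKO, with the higher value in replicate 2, and 18.7 to 20.5% in WT. Adamts3 made up 37.8 to 40.0% of the sum in Misc DKO, against 35.4 to 38.8% in Misc WT, and was the largest part in SMP WT at 65.4 to 68.2%, against 22.4 to 38.3% in SMP DKO. Adamts14 made up 25.3 to 42.6% in SMP DKO, against 13.1 to 14.1% in SMP WT. The sum itself in FAP was 88.8 to 96.6 CPM per kb for DKO, against 96.1 to 107.6 for WT. In Misc it was 83.4 to 98.5 for DKO, against 112.4 to 126.4 for WT, and in SMP it was 12.9 to 20.9 for DKO, against 15.2 to 17.9 for WT. Shares and sums are descriptions without a test, and only the Misc sums did not overlap between genotypes.

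Adamts1, on chromosome 16 from 85793827 to 85803113 (minus strand), changed in 1 population. It had 1612.4, 1970.6, 1801.7 and 1871.6 CPM in FAP DKO, against 1565.9, 1991.3, 1880.1 and 1767.4 CPM in FAP WT, and the fold change was 0.01 ± 0.12 (adjusted p = 0.97). In Misc it had 1154.5, 1190.1, 911.9 and 1178.6 CPM in DKO, against 912.8, 1259.8, 1158.7 and 1142.1 CPM in WT, with a fold change of −0.01 ± 0.12 (adjusted p = 0.96). The groups overlapped in both populations. The SMP libraries had 801.1 and 1099.5 CPM in DKO, against 1375.9 and 1343.5 CPM in WT, and fell by 0.52 ± 0.18 in DKO (−0.52, adjusted p = 0.037). The SMP call was lost without SMP DKO replicate 1 (−0.32, adjusted p = 0.26), SMP WT replicate 1 (adjusted p = 0.13) or SMP WT replicate 2 (adjusted p = 0.086), and with the SMP libraries fitted alone (adjusted p = 0.11). Without SMP DKO replicate 2 it was −0.77 (adjusted p = 0.0099). Immediate early and dissociation genes moved in the same population: 8 of 11 were lower in SMP DKO and 0 higher, with summed levels of 35659.6 to 40321.2 CPM in SMP DKO against 59165.3 to 68579.3 CPM in SMP WT. Of the same genes 1 was higher and 5 lower in FAP DKO, and 2 were higher and 4 lower in Misc DKO. Of all genes, 11.2% were lower in SMP DKO, 5.14% in FAP DKO and 9.55% in Misc DKO. The 11 genes summed to 34611.3 to 44457.7 CPM in FAP DKO against 34310.3 to 36808.6 CPM in FAP WT. In Misc they summed to 40971.5 to 53059.6 CPM in DKO against 36406.6 to 44386.1 CPM in WT. The part of these genes in the Adamts1 difference was not tested.

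FAP held more Adamts1 than Misc, by 0.71 ± 0.12 in DKO (adjusted p = 7.5e-05) and 0.69 ± 0.12 in WT (adjusted p = 8.5e-05). FAP over SMP was 0.93 ± 0.16 in DKO (adjusted p = 2.3e-05) and 0.41 ± 0.15 in WT (adjusted p = 0.026). The WT call over SMP was lost without FAP WT replicate 2 (adjusted p = 0.064), SMP WT replicate 1 (adjusted p = 0.084) or SMP WT replicate 2 (adjusted p = 0.12). Misc and SMP were not told apart in either genotype, at 0.22 ± 0.15 in DKO (adjusted p = 0.22) and −0.28 ± 0.15 in WT (adjusted p = 0.11). Without SMP DKO replicate 2 the DKO value was 0.48 and was called (adjusted p = 0.027).

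Adamts4, or aggrecanase 1, on chromosome 1 from 171250129 to 171262267 (plus strand), rose in FAP DKO. The FAP DKO libraries had 414.7, 646.6, 413.0 and 515.2 CPM, against 275.6, 325.6, 226.5 and 220.4 CPM in FAP WT. All 4 DKO libraries lay above all 4 WT libraries, and the fold change was 0.92 ± 0.20 (adjusted p = 0.006). The Misc libraries had 173.0, 169.2, 108.8 and 172.1 CPM in DKO, against 118.1, 142.0, 142.6 and 105.7 CPM in WT, with overlap and a fold change of 0.29 ± 0.20 (adjusted p = 0.36). In SMP it had 152.9 and 281.2 CPM in DKO, against 172.8 and 133.1 CPM in WT (0.50 ± 0.29, adjusted p = 0.22), and the value was −0.01 without SMP DKO replicate 2 and 0.86 (adjusted p = 0.048) without SMP DKO replicate 1. The FAP effect exceeded the Misc effect by 0.63 ± 0.29, which was not called (adjusted p = 0.36). With same-numbered FAP and Misc libraries paired and the SMP libraries left out, it was 0.66 and was called (adjusted p = 0.0063). The share of Adamts4 in the summed CPM per kb of the 4 proteoglycan-cleaving enzymes was 18.6 to 25.2% in FAP DKO, against 10.7 to 14.6% in FAP WT.

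Adamts4 was higher in FAP than in Misc by 1.67 ± 0.21 in DKO (adjusted p = 3.4e-06) and 1.04 ± 0.20 in WT (adjusted p = 0.00044). It was higher in FAP than in SMP by 1.2 ± 0.26 in DKO (adjusted p = 0.00071) and 0.78 ± 0.26 in WT (adjusted p = 0.013). The last of these calls was lost without SMP WT replicate 2 (0.60, adjusted p = 0.14). Misc against SMP was −0.48 ± 0.25 in DKO (adjusted p = 0.1) and −0.27 ± 0.25 in WT (adjusted p = 0.36), and the DKO value was called without SMP DKO replicate 1 (−0.83, adjusted p = 0.014).

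Adamts5, or aggrecanase 2, the main aggrecanase of mouse cartilage, lies on chromosome 16 from 85858157 to 85901125 on the minus strand, 55.0 kb from its neighbour Adamts1. Its DKO values lay between −0.49 and −0.41 in the 3 populations, and only the Misc one was called. The FAP libraries had 355.2, 256.2, 404.7 and 329.6 CPM in DKO, against 450.8, 460.9, 436.7 and 440.9 CPM in WT. The groups did not overlap, and the value of −0.41 ± 0.14 missed the threshold (adjusted p = 0.054). It passed with DESeq2's Wald test (−0.41, adjusted p = 0.038), with the FAP libraries fitted alone (−0.40, adjusted p = 0.022), and without FAP DKO replicate 3 (−0.51, adjusted p = 0.024). In Misc it had 102.8, 114.0, 148.6 and 88.3 CPM in DKO, against 138.6, 182.2, 146.4 and 168.4 CPM in WT. These overlapped through Misc DKO replicate 3, and the value of −0.49 ± 0.14 was called (adjusted p = 0.015), except without Misc DKO replicate 4 (−0.41, adjusted p = 0.051). The SMP libraries had 68.0 and 80.6 CPM in DKO, against 102.8 and 104.6 CPM in WT, a difference of −0.48 ± 0.20 (adjusted p = 0.081) without overlap, and −0.62 (adjusted p = 0.089) without SMP DKO replicate 2.

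As a level, Adamts5 was highest in FAP. It was higher in FAP than in Misc by 1.57 ± 0.14 in DKO (adjusted p = 3e-09) and 1.49 ± 0.14 in WT (adjusted p = 3.9e-09), and higher in FAP than in SMP by 2.18 ± 0.19 in DKO (adjusted p = 1.1e-09) and 2.11 ± 0.19 in WT (adjusted p = 9.1e-10). Misc also exceeded SMP, by 0.61 ± 0.18 in DKO (adjusted p = 0.0046) and 0.62 ± 0.17 in WT (adjusted p = 0.0036). Leaving out SMP DKO replicate 1 ended the DKO call (0.51, adjusted p = 0.067). Although Adamts1 and Adamts5 are neighbours, their DKO values in FAP were 0.01 ± 0.12 for Adamts1 and −0.41 ± 0.14 for Adamts5, and the difference between the genes was not tested.

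Adamts9, on chromosome 6 from 92772699 to 92944450 (minus strand), encodes a versican protease. Its exons overlap 2 genes of the opposite strand, Gm15737 over 424 bases and A730049H05Rik over 166 bases, and since no source says whether counting used strand, reads of the partners could be included. The FAP DKO libraries had 49.4, 67.7, 37.5 and 71.1 CPM, against 25.8, 29.8, 31.1 and 26 CPM in FAP WT. All 4 DKO libraries were higher, and the fold change was 1.00 ± 0.19 (adjusted p = 0.0017). The Misc libraries had 113.7, 97.1, 70.0 and 98.8 CPM in DKO, against 124.4, 96.7, 102.9 and 121.0 CPM in WT. In SMP it had 80.8 and 120.0 CPM in DKO, against 103.0 and 87.2 CPM in WT. Both of these overlapped, at −0.23 ± 0.18 in Misc (adjusted p = 0.41) and 0.08 ± 0.25 in SMP (adjusted p = 0.86), the SMP value being −0.25 (adjusted p = 0.61) without SMP DKO replicate 2. The DKO effect was larger in FAP than in Misc by 1.23 ± 0.26 (adjusted p = 0.011). Against SMP the same difference was 0.92 ± 0.31 (adjusted p = 0.069), and it passed without FAP DKO replicate 3 (1.08, adjusted p = 0.014), without SMP DKO replicate 2 (1.24, adjusted p = 0.037) and with DESeq2's Wald test (0.90, adjusted p = 0.04).

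In contrast to Adamts1, Adamts4 and Adamts5, Adamts9 was lowest in FAP. In DKO it was −0.75 ± 0.18 against Misc (adjusted p = 0.0033) and −0.83 ± 0.22 against SMP (adjusted p = 0.0028), and the SMP call was lost without SMP DKO replicate 2 (−0.51, adjusted p = 0.12) and with only FAP DKO and SMP DKO fitted (adjusted p = 0.051). In WT it was −1.98 ± 0.19 against Misc (adjusted p = 5.4e-08) and −1.75 ± 0.21 against SMP (adjusted p = 8.3e-07). Misc and SMP were not told apart, at −0.08 ± 0.22 in DKO (adjusted p = 0.77) and 0.23 ± 0.22 in WT (adjusted p = 0.39). Of 7 endothelial markers, 0 were called higher and 1 lower in FAP DKO, and they summed to 142.7 to 233.1 CPM in FAP DKO against 303.4 to 372.7 CPM in FAP WT. Most of that sum was the one called lower, Tek, with 137.6 ± 25.9 CPM in FAP DKO and 277.1 ± 8.51 CPM in FAP WT (−1.01 ± 0.13, adjusted p = 1.7e-05). Kdr was not called, at 14.2 ± 8.49 CPM in FAP DKO and 7.22 ± 4.15 CPM in FAP WT (0.93 ± 0.60, adjusted p = 0.37). FAP replicate 1 of each genotype held the most Cdh5 of its group, 14.5 CPM in DKO and 29.1 CPM in WT. Without both, Adamts9 was 1.01 (adjusted p = 0.01), Adamts4 1.02 (adjusted p = 0.017) and Adamts3 0.64 (adjusted p = 0.005). The part of endothelial cells in the Adamts9 difference was not tested.

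Adamts10, on chromosome 17 from 33523646 to 33553782 (plus strand), binds fibrillin microfibrils and is mutated in human Weill-Marchesani syndrome. It had 139.5, 167.6, 170.1 and 129.3 CPM in FAP DKO, against 147.3, 118.1, 136.7 and 161.5 CPM in FAP WT (0.10 ± 0.13, adjusted p = 0.67). In Misc it had 142.4, 118.4, 111.5 and 105.9 CPM in DKO, against 108.7, 112.9, 152.1 and 150.2 CPM in WT (−0.13 ± 0.13, adjusted p = 0.53). The SMP libraries had 97.4 and 80.9 CPM in DKO, against 182.2 and 188.1 CPM in WT. The groups overlapped in FAP and Misc and were far apart in SMP, where Adamts10 fell by 1.05 ± 0.18 in DKO (−1.05, adjusted p = 0.00032). It was −0.94 (adjusted p = 0.007) without SMP DKO replicate 2. The DKO effect differed from that in SMP by 1.16 ± 0.22 in FAP (adjusted p = 0.0017) and 0.92 ± 0.22 in Misc (adjusted p = 0.01). The second of these was lost without SMP DKO replicate 2 (0.80, adjusted p = 0.061).

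The population order of Adamts10 turned with genotype. In DKO, FAP was above SMP by 0.76 ± 0.16 (adjusted p = 0.00033) and Misc above SMP by 0.42 ± 0.16 (adjusted p = 0.028). In WT, FAP was below SMP (−0.39 ± 0.15, adjusted p = 0.029) and so was Misc (−0.50 ± 0.15, adjusted p = 0.0069). Several of these small differences hung on single libraries. The DKO call for Misc over SMP was lost in 5 of 11 alternatives. Among these were leaving out SMP DKO replicate 2 or Misc DKO replicate 1 (adjusted p = 0.069 for the latter), DESeq2's size factors (adjusted p = 0.051) and a replicate block over all groups. The WT call for FAP below SMP was lost without FAP WT replicate 2 (adjusted p = 0.089), FAP WT replicate 3 (adjusted p = 0.055), SMP WT replicate 1 (adjusted p = 0.099) or SMP WT replicate 2 (adjusted p = 0.13), and with no filter on low counts (adjusted p = 0.059). The WT call for Misc below SMP was lost without SMP WT replicate 2 (adjusted p = 0.051). FAP over Misc was 0.34 ± 0.13 in DKO (adjusted p = 0.047), lost without FAP DKO replicate 2 (adjusted p = 0.13), FAP DKO replicate 3 (adjusted p = 0.14), Misc DKO replicate 2 (adjusted p = 0.081), Misc DKO replicate 3 (adjusted p = 0.11) or Misc DKO replicate 4 (adjusted p = 0.12). It was also lost without FAP replicate 1 of both genotypes (adjusted p = 0.05). In WT it was 0.11 ± 0.13 (adjusted p = 0.56).

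Adamts12, on chromosome 15 from 11064773 to 11349232 (plus strand), encodes an enzyme that cleaves cartilage oligomeric matrix protein in vitro. The FAP libraries had 188.3, 109.8, 159.8 and 126.0 CPM in DKO, against 213.3, 224.0, 174.7 and 229.2 CPM in WT. These overlapped through FAP DKO replicate 1 and FAP WT replicate 3, and −0.52 ± 0.21 was not called (adjusted p = 0.13), though it passed with the FAP libraries fitted alone (−0.51, adjusted p = 0.036). The Misc libraries had 45.5, 35.4, 42.2 and 23.4 CPM in DKO, against 64.6, 82.8, 52.5 and 53.9 CPM in WT. All 4 DKO libraries were lower, and Adamts12 fell by 0.79 ± 0.22 (−0.79, adjusted p = 0.019). The call was lost without Misc DKO replicate 2 (−0.78, adjusted p = 0.054) or Misc WT replicate 2 (−0.66, adjusted p = 0.055). In SMP it had 13.6 and 25.8 CPM in DKO, against 20.5 and 22.0 CPM in WT (−0.12 ± 0.34, adjusted p = 0.83), and the value was −0.66 (adjusted p = 0.3) without SMP DKO replicate 2.

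Adamts12 was graded across the populations in both genotypes, highest in FAP and lowest in SMP. FAP over Misc was 1.99 ± 0.23 in DKO (adjusted p = 1.8e-06) and 1.73 ± 0.22 in WT (adjusted p = 5e-06). FAP over SMP was 2.90 ± 0.32 in DKO (adjusted p = 6.4e-07) and 3.31 ± 0.32 in WT (adjusted p = 7.9e-08). Misc over SMP was 0.91 ± 0.31 in DKO (adjusted p = 0.017), lost without SMP DKO replicate 1 (0.53, adjusted p = 0.24) and 1.45 (adjusted p = 0.0046) without SMP DKO replicate 2, and 1.58 ± 0.29 in WT (adjusted p = 0.00017).

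Adamts16, on chromosome 13 from 70727798 to 70841845 (minus strand), linked to kidney and testis development in rodents, was at 9.71 CPM or more in FAP libraries and at 1.33 CPM or less in Misc and SMP libraries. It had 29.1, 9.71, 14.2 and 17.3 CPM in FAP DKO, against 42.0, 37.1, 37.2 and 28.8 CPM in FAP WT. FAP DKO replicate 1 reached just above the lowest WT library, and the other 3 DKO libraries lay below all WT libraries. Adamts16 fell in FAP DKO by 1.03 ± 0.26 (−1.03, adjusted p = 0.014), a call lost with the FAP libraries fitted alone (−1, adjusted p = 0.053). Without FAP replicate 1 of both genotypes the value was −1.31 (adjusted p = 0.0024).

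Outside FAP the counts of Adamts16 were too few to compare genotypes by a fold change. The 4 Misc DKO libraries had 3, 1, 0 and 2 counts and the 4 Misc WT libraries 5, 4, 1 and 1. The SMP DKO libraries had 1 and 9 counts, the 9 in replicate 2 with its raised Pdgfra, and the SMP WT libraries had 1 and 0. Summed over libraries and scaled by depth, FAP exceeded Misc 100.3 times in DKO (95% exact counting interval 45.8 to 274.2, 698 against 6 counts) and 164.5 times in WT (91.7 to 330.1, 1650 against 11 counts). FAP exceeded SMP 26.6 times in DKO (14.4 to 55.7, 698 against 10 counts). Without SMP DKO replicate 2, which held 9 of the 10 counts, the ratio was 140.7 (25.2 to 5565.8, 698 against 1 count). In WT the ratio of FAP to SMP was 868.8 (155.7 to 34336.0, 1650 against 1 count). These intervals cover counting error only. By edgeR, FAP differed from Misc (adjusted p = 4.2e-09 in DKO and 4.2e-11 in WT) and from SMP (adjusted p = 8.4e-07 in DKO and 1.6e-09 in WT).

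**Figure D3:**
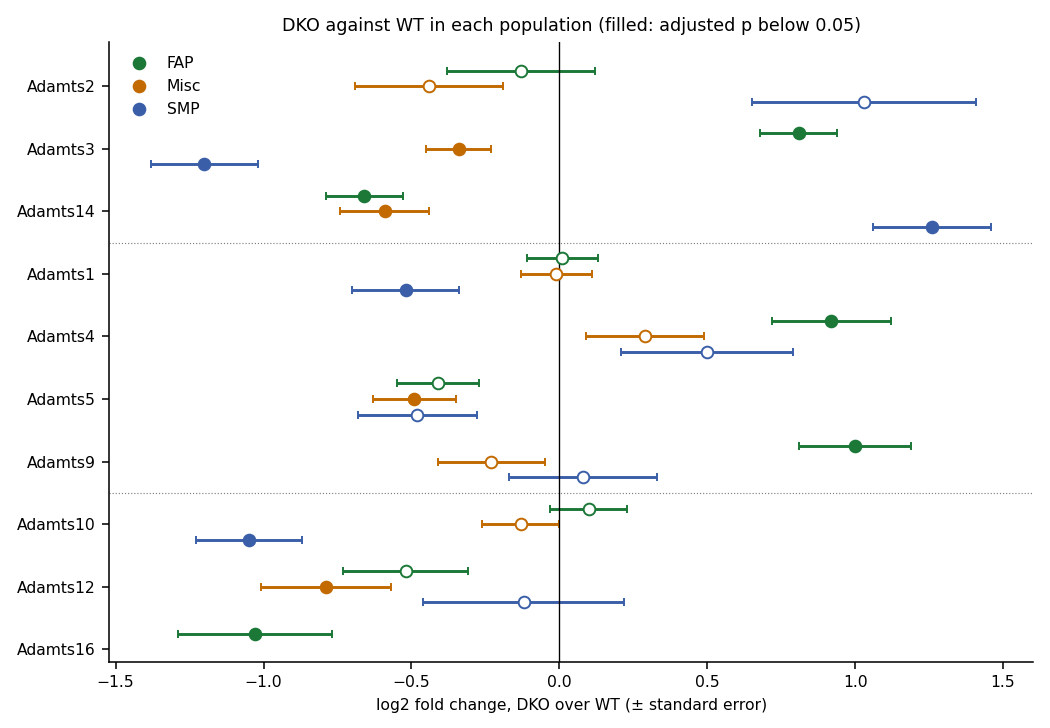
DKO over WT log2 fold change ± standard error of each gene in FAP, Misc and SMP, from top to bottom in each row, with dotted lines between the substrate groups and filled points where the adjusted p is below 0.05 (Adamts16 for FAP alone, since it had 11 or fewer counts per group elsewhere). Adamts3 and Adamts14 have called changes of opposite sign between populations, and Adamts5 lies between −0.49 and −0.41 in all 3.

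Most of the 10 genes differed between FAP and each other population, with FAP mostly the higher one. FAP and Misc differed in 9 of 10 in DKO (7 higher in FAP, 2 lower), where 29.7% of all genes were called (16% higher, 13.7% lower), and in 8 of 10 in WT (6 higher, 2 lower), where 36.9% were (19.3% higher, 17.6% lower). FAP and SMP differed in 8 of 10 in DKO (7 higher, 1 lower), where 58.8% were (29.2% higher, 29.6% lower), and in 10 of 10 in WT (7 higher, 3 lower), where 62.3% were (31.1% higher, 31.3% lower). Misc and SMP differed in 6 of 10 in DKO (5 higher in Misc, 1 lower), where 59.5% were (29.8% higher, 29.7% lower), and in 5 of 10 in WT (4 higher, 1 lower), where 60.6% were (30.6% higher, 30% lower). The comparisons share libraries, FAP and Misc were compared here without pairing, and the genes were not drawn at random. Adamts3 and Adamts9 were the 2 genes lower in FAP than in Misc in both genotypes.

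For each gene, the single other gene with the most similar pattern of group means was found by the root mean square difference of centred log2 means over the 6 groups, among 9976 genes. The closest pairs were Adamts1 with Camk2n1 at 0.085 and Adamts10 with Dmxl2 at 0.088. They were followed by Adamts5 with Antxr2 (0.113), Adamts16 with Wnt10b (0.142), Adamts12 with Entpd2 (0.165), Adamts14 with Plcxd2 (0.183), Adamts4 with H2-Q4 (0.188), Adamts9 with Rasal2 (0.206) and Adamts2 with Steap3 (0.224). Adamts3 had the least close partner, Cacnb2 at 0.259. These are likenesses over 6 means and carry no test.

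The genes around the enzymes gave no common direction either. For this list and the 3 that follow, the share of all genes called was 10.7% in FAP, 18.7% in Misc and 23% in SMP. A list of 8 genes held collagen chains cut by the N-proteinases, Vegfc and its cofactor Ccbe1, which is not itself a substrate. Of the 8, 0 were higher and 2 lower in FAP DKO, 3 higher and 2 lower in Misc DKO, and 2 higher and 0 lower in SMP DKO. In FAP the lower ones were Col5a1, a minor fibrillar collagen chain, at −0.47 ± 0.11 (adjusted p = 0.0065), and Ccbe1, at −0.56 ± 0.18 (adjusted p = 0.048). In Misc the type I collagen chains fell, Col1a2 by 0.81 ± 0.20 (−0.81, adjusted p = 0.005) and Col1a1 by 0.68 ± 0.20 (−0.68, adjusted p = 0.018). Col5a2 rose in Misc by 0.52 ± 0.10 (adjusted p = 0.00056). Col1a2 had 30276.0 ± 5083.7 CPM in Misc DKO and 52907.1 ± 5975.6 CPM in Misc WT. In SMP, Col5a1 (0.50 ± 0.16, adjusted p = 0.026) and Col5a2 (0.59 ± 0.14, adjusted p = 0.0046) were called higher. Without SMP DKO replicate 2 neither passed, and the list held 0 higher and 3 lower, Ccbe1, Col1a1 and Col1a2.

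**Figure D4:**
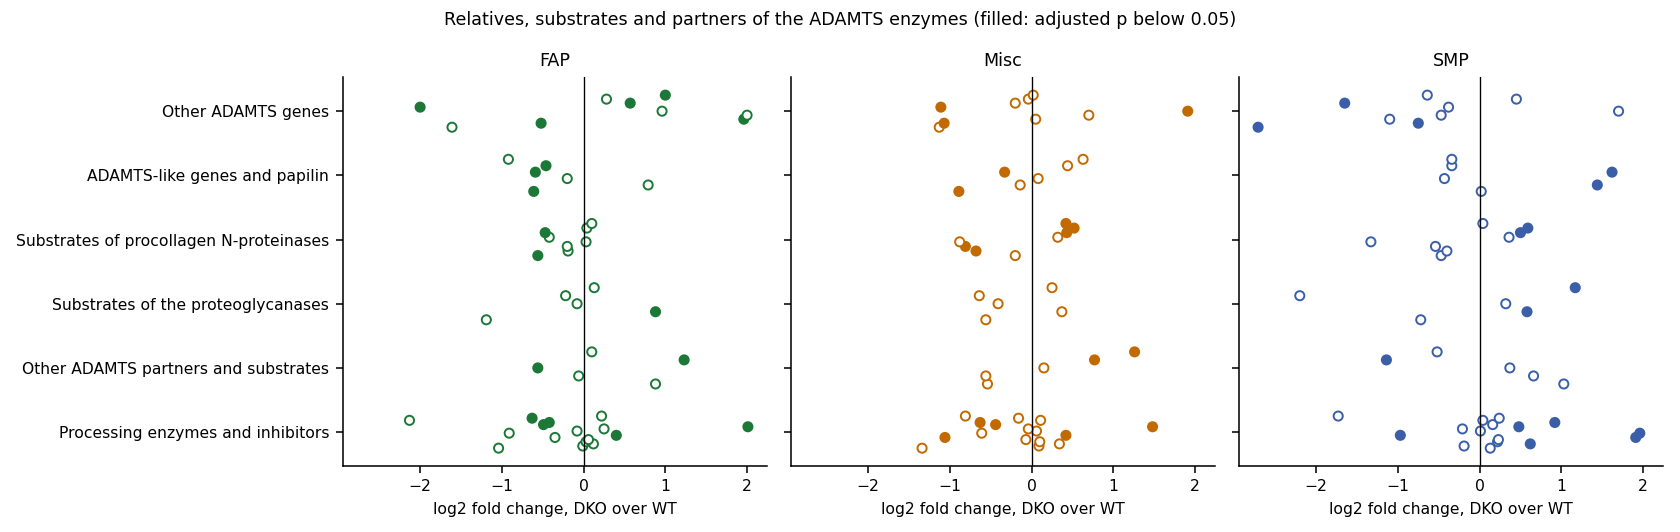
DKO over WT log2 fold changes of single genes, 1 point per gene, in lists of relatives, substrates and partners of the enzymes, with a panel for each population and filled points where the adjusted p is below 0.05. Called points of the processing enzymes and inhibitors lie on both sides of 0 in every panel. Many other lists have called points on a single side within a panel, or none. Timp1 at 2.01 is the rightmost filled point in FAP.

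Of 7 genes listed as substrates of the proteoglycan-cleaving enzymes, not all of them proteoglycans, 5 were tested. Biglycan (Bgn), a small proteoglycan, rose in FAP DKO by 0.88 ± 0.14 (adjusted p = 0.00024), to 3640.3 ± 394.5 CPM in FAP DKO against 1979.6 ± 126.3 CPM in FAP WT, and no other tested substrate was called there. In Misc 0 of 5 were called. In SMP, versican (Vcan, 1.17 ± 0.33, adjusted p = 0.017) and Bgn (0.58 ± 0.20, adjusted p = 0.042) were higher. Neither was called without SMP DKO replicate 2, where Vcan was 0.44 (adjusted p = 0.36) and Bgn 0.01 (adjusted p = 0.98). The list then held 0 higher and 1 lower of 6 tested, the lower one being decorin (Dcn, −1.05, adjusted p = 0.00015). The replicates themselves had 39.5 and 90.4 CPM of Vcan in SMP DKO, against 34.3 and 23.3 CPM in SMP WT. Aggrecan (Acan) was low in FAP, with 0.0968 to 0.56 CPM in DKO against 0.476 to 0.709 CPM in WT, and was not called there (−1.19 ± 0.90, adjusted p = 0.45).

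Among 5 other partners, fibrillin 2 (Fbn2) moved in all populations, higher in FAP DKO by 1.23 ± 0.27 (adjusted p = 0.0063) and in Misc DKO by 0.77 ± 0.20 (adjusted p = 0.011) and lower in SMP DKO (−1.14 ± 0.32, adjusted p = 0.018). The SMP call was lost without SMP DKO replicate 2 (adjusted p = 0.067), where Fn1 was called lower (−0.91, adjusted p = 0.0026). Fibrillin 1 (Fbn1), a binding partner of Adamts10, fell in FAP DKO (−0.56 ± 0.14, adjusted p = 0.0087). Fibronectin (Fn1) rose in Misc DKO by 1.26 ± 0.14 (adjusted p = 4.3e-07). In counts, the list had 1 higher and 1 lower in FAP, 2 and 0 in Misc, and 0 and 1 in SMP.

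The 16 processing enzymes and inhibitors gave 2 higher and 3 lower in FAP, 2 higher and 3 lower in Misc, and 5 higher and 1 lower in SMP, the last becoming 1 higher and 2 lower without SMP DKO replicate 2. Timp1, a general metalloproteinase inhibitor, rose in FAP DKO by 2.01 ± 0.12 (adjusted p = 6e-11) and in Misc DKO by 1.48 ± 0.11 (adjusted p = 4.8e-09). Timp3, the matrix-bound inhibitor of aggrecanases, went the other way there. It fell in FAP DKO (−0.42 ± 0.10, adjusted p = 0.0086) and Misc DKO (−0.63 ± 0.10, adjusted p = 9.6e-05), and rose in SMP DKO (0.92 ± 0.15, adjusted p = 0.00012, and 0.78 without SMP DKO replicate 2, adjusted p = 0.0021). Timp3 had 797.7 ± 114.2 CPM in FAP DKO and 1065.6 ± 41.2 CPM in FAP WT, 825.7 ± 58.6 CPM in Misc DKO and 1279.0 ± 52.4 CPM in Misc WT, and 806.6 ± 94.0 CPM in SMP DKO and 427.0 ± 18.1 CPM in SMP WT. Pcsk6, a convertase, and Pcolce2, an enhancer of procollagen trimming, were called higher in SMP DKO at 1.96 ± 0.51 (adjusted p = 0.012) and 1.91 ± 0.45 (adjusted p = 0.007). Both rested on SMP DKO replicate 2, with 42.7 CPM of Pcsk6 and 45.3 CPM of Pcolce2, against 6.85 and 10.3 CPM in replicate 1. Pcolce2 fell in Misc DKO (−1.06 ± 0.27, adjusted p = 0.01). The convertase Pcsk5 was lower in SMP DKO (−0.97 ± 0.15, adjusted p = 9.8e-05), and −1.32 without replicate 2.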

How the data were processed

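Per the series design text, paired reads from an Illumina HiSeq were placed on mm10 by OSA using RefSeq gene models. The submitters' processing notes also name DESeq2. Unnormalised counts, a gene per line and a library per column, are what the authors deposited. The sources used here do not give the counting tool or its strand setting. The labels call the replicates biological without saying whether they came from separate animals, so p-values measure the spread between these libraries.

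The 10 members and all gene lists were chosen with earlier results of these data known. All 10 are named in every comparison. From each list at most 4 called genes per comparison are named, those with the largest change, beside genes a result turns on (Acan, Thbs4, Scx, Fmod, Tnmd, Tek, Kdr, Cdh5, Chodl, Dcn, Fn1, Timp3 and Pcsk5 among them, chosen after their values were seen). Of 24393 identifiers, 24312 matched RefSeq (GRCm38.p6), and 52 blank or date-like symbols were restored.

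Genes passing edgeR's filterByExpr (minimum count 10, minimum total 15) were scaled by TMM and fitted with edgeR 4.0.16 (R 4.3.3), robust quasi-likelihood, all 6 groups together, with no block. The 12 comparisons were DKO against WT in each population, population pairs within each genotype, and differences of DKO effects. CPM uses TMM-scaled totals. Exon length is the union of GENCODE M21 transcripts that map to RefSeq. Promoters came from a RefSeq table in which 6 of the 10 genes were matched; the Adamts3 and Adamts9 windows lie inside the gene record and are not shown. The edgeR step was tested on simulated counts.

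Whether replicate numbers pair libraries was checked by correlating deviations from group means. For the 4 same-numbered FAP and Misc pairs of DKO the range was 0.25 to 0.41 (other numbers −0.25 to 0.13). For the 4 of WT it was 0.22 to 0.29 (other numbers −0.27 to 0.08). By this check alone, same-numbered FAP and Misc libraries go together. The main fit does not use that pairing, so its FAP against Misc values are unpaired. A fit paired within genotype, without the SMP libraries, was run as an alternative only. Alternatives were DESeq2 1.42.0 size factors and Wald test, no filter, only the compared groups, replicate blocks, each library left out, and FAP replicate 1 of both genotypes left out, the last chosen after seeing the data.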

Additional observations from a re-analysis of the deposited data

Results flagged for a closer look

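Among 40 groups of 4 libraries, Misc DKO replicate 3 was far from the others for 2 genes, where chance flags about 1 group in 20. It had 911.9 CPM of Adamts1 against 1154.5 to 1190.1 CPM in the other 3, and 108.8 CPM of Adamts4 against 169.2 to 173.0 CPM.

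The DKO effect differed between populations, by the test of the difference, for 4 genes. For Adamts3 the effect in FAP minus that in Misc was 1.15, in FAP minus that in SMP 2.00, and in Misc minus that in SMP 0.86. Adamts9 gave 1.23 for FAP minus Misc. Adamts10 gave 1.16 for FAP minus SMP and 0.92 for Misc minus SMP. Adamts14 gave −1.92 for FAP minus SMP and −1.85 for Misc minus SMP.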

How the results depend on the processing

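The count of members called between DKO and WT was 5 in FAP (5 to 6 with a library left out and 5 to 6 under other settings), 4 in Misc (2 to 4 and 4 to 5) and 4 in SMP (3 to 6 and 3 to 6). The 2 in Misc came without Misc DKO replicate 2, where 2042 of 14170 genes were called, against 2652 of 14179 with all libraries. Over all genes, the number called also moved under other settings. In FAP it ran from 1132 of 14049 to 2214 of 12466, and in Misc from 2414 of 19362 to 2736 of 14846. In SMP it ran from 924 of 12845, with the SMP libraries fitted alone, to 3292 of 14471, with DESeq2's Wald test. For FAP against Misc the counts were 8 to 10 in DKO and 8 to 9 in WT under all alternatives. All genes called ran from 3577 of 12303 to 5415 of 13133 in DKO, and from 4577 of 14145 to 6403 of 13133 in WT. For the DKO effect in FAP minus that in Misc, 2 members were called, and 4 with a replicate block within genotype on FAP and Misc libraries, so the block added Adamts2 (0.34, adjusted p = 0.047) and Adamts4. Over all genes this block called 1246 of 13133. The same FAP and Misc libraries fitted without the block gave 590 of 13133, and the main fit, which includes SMP, gave 396 of 14179. For FAP minus SMP, 3 were called, 6 with DESeq2's Wald test, and 3 to 5 with a library left out, the 5 coming without SMP DKO replicate 1 or without SMP DKO replicate 2. Over all genes 1465 of 14179 were called, 1754 of 14095 with the Wald test, 1783 of 14710 without SMP DKO replicate 1 and 1022 of 14587 without SMP DKO replicate 2. For Misc minus SMP, 3 were called, and 2 to 4 with a library left out. For these counts the cause was not tested.

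The direction of a single gene turned in 36 values with a library left out and in 1 other, Adamts1 in FAP at 0.00 without FAP replicate 1 of both genotypes; none of these had been called. With a library left out, DKO against WT ranged from −0.05 to 0.06 for Adamts1 in FAP, −0.12 to 0.07 for Adamts1 and −0.81 to 0.16 for Adamts16 in Misc, and in SMP from −0.41 to 1.73 for Adamts2, −0.01 to 0.86 for Adamts4, −0.25 to 0.32 for Adamts9 and −0.66 to 0.26 for Adamts12. Misc against SMP in DKO ranged from −0.83 to 0.04 for Adamts4, −0.32 to 0.25 for Adamts9 and −2.75 to 0.47 for Adamts16. FAP minus Misc ranged from −0.06 to 0.14 for Adamts1, −0.03 to 0.24 for Adamts5 and −0.18 to 0.08 for Adamts14. FAP minus SMP ranged from −1.86 to 0.28 for Adamts2, −0.03 to 0.21 for Adamts5 and −0.79 to 0.13 for Adamts12. Misc minus SMP ranged from −0.57 to 0.30 for Adamts4, −0.16 to 0.13 for Adamts5 and −0.55 to 0.01 for Adamts9. Adamts16 values outside FAP rest on a few counts. A replicate block over all groups called Adamts16 for FAP minus SMP (adjusted p = 0.039), ended the Adamts10 call for FAP against Misc in DKO (0.34, adjusted p = 0.06) and for Misc against SMP in DKO, and moved no other call except Adamts5 in FAP, which then passed (−0.42). DESeq2 also called Adamts2 in SMP (1.06, adjusted p = 0.011).

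Depth limits Adamts16 outside FAP, and 2 libraries per group limit SMP. Values without 1 SMP library rest on a lone sample assumed to vary like the other groups.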

Other observations

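The other 9 Adamts genes of the table were also tested. In FAP DKO 3 were higher and 2 lower, in Misc DKO 1 higher and 2 lower, and in SMP DKO 0 higher and 3 lower, with median log2 fold changes of 0.57, −0.04 and −0.64. Here and for the next list, the share of all genes called in FAP was 10.7% (5.58% higher, 5.14% lower). In Misc it was 18.7% (9.15% higher, 9.55% lower), and in SMP 23% (11.8% higher, 11.2% lower). Adamts17 rose in FAP DKO by 1.96 ± 0.30 (edgeR adjusted p = 0.0001), with 5.93 ± 0.681 CPM in FAP DKO and 1.52 ± 0.561 CPM in FAP WT (SD, n = 4 each). Adamts20 fell in FAP DKO (−2 ± 0.36, adjusted p = 0.00062) and Misc DKO (−1.11 ± 0.24, adjusted p = 0.0019), and was highest in SMP, with 61.5 and 33.3 CPM in SMP DKO and 58.9 and 65.2 CPM in SMP WT against at most 7.26 CPM in any FAP or Misc library. Adamts15 was lower in DKO in FAP (−0.52 ± 0.16, adjusted p = 0.036), Misc (−1.07 ± 0.17, adjusted p = 7.4e-05) and SMP (−0.75 ± 0.24, adjusted p = 0.03), and the SMP call was lost without SMP DKO replicate 2 (−0.36, adjusted p = 0.34). Adamts6 rose in FAP DKO (0.57 ± 0.12, adjusted p = 0.0037) and fell in SMP DKO (−1.65 ± 0.22, adjusted p = 2e-05). Adamts8 rose in FAP DKO (1.00 ± 0.26, adjusted p = 0.012). Adamts19 rose in Misc DKO (1.91 ± 0.51, adjusted p = 0.013), at 3.35 ± 0.82 CPM in Misc DKO and 0.906 ± 0.53 CPM in Misc WT.

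Of the 6 ADAMTS-like genes, which have no protease domain, papilin included, 0 were higher and 3 lower in FAP DKO, 0 higher and 2 lower in Misc DKO, and 2 higher and 0 lower in SMP DKO. Adamtsl4, which binds fibrillin, was lower in DKO in FAP (−0.59 ± 0.10, adjusted p = 0.0004) and Misc (−0.33 ± 0.11, adjusted p = 0.035) and higher in SMP (1.62 ± 0.16, adjusted p = 4.1e-07). Its SMP libraries had 56.5 and 54.4 CPM in DKO, against 19.1 and 17.0 CPM in WT, and the value was 1.64 without SMP DKO replicate 2. Adamtsl1 was lower in FAP DKO (−0.61 ± 0.16, adjusted p = 0.019) and Misc DKO (−0.89 ± 0.16, adjusted p = 0.00059). Without SMP DKO replicate 2 the SMP counts of the list were 1 higher and 1 lower. Adamtsl2 was called higher in SMP DKO (1.44 ± 0.49, adjusted p = 0.045), and not without replicate 2 (0.98, adjusted p = 0.31).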
